A study of Mus musculus and Homo sapiens with 47 samples.

Results

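Cycling cells of the mouse small intestinal epithelium were followed in 3 droplet-based 3' single-cell RNA libraries, 1 each of days 7, 12 and 16. A cell counted as cycling when the RNA molecules (unique molecular identifiers, UMIs) of 8 mitotic genes, Mki67, Top2a, Cdk1, Ccnb1, Ccna2, Ube2c, Plk1 and Aurkb, summed to at least 10, with at least 4 of the 8 genes detected. The choice was made among barcodes with at least 2500 UMIs, at least 500 genes and at most 20% mitochondrial (mt-) UMIs. It took 818 of 3833 cells at day 7, 507 of 4664 at day 12 and 797 of 2792 at day 16, in all 2122 of 11289. Because the cells were chosen by their own counts, every difference between cycling and other cells of a day is a description and was not tested.

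All 3 libraries had the same genotype, Eed F/F; Lgr5EGFP-IRES-CreERT, in adult mice of a B6;129 mixed background. Eed is a core subunit of Polycomb repressive complex 2 (PRC2), which places the silencing mark H3K27me3. GFP and the tamoxifen-inducible Cre are both driven from the Lgr5 locus, so recombination begins in Lgr5-expressing stem cells and passes to their progeny. Tamoxifen was given on 5 consecutive days and on alternate days thereafter. The epithelium of the proximal intestine was dissociated, and its GFP-positive cells were taken by flow cytometry. The labels give the source as villus cells although stem cells were sorted, and they do not name the event from which days are counted. No wild-type single-cell library was used here, so the comparisons are between cycling and other cells of a day and between days. With 1 library a day, a difference between days cannot be told apart from one between animals or libraries, and no p-value is given. Levels are UMIs of a gene per 1000000 UMIs of the pooled cells (CPM), in the order of days 7, 12 and 16 unless stated otherwise. Intervals are 95% limits, exact Poisson for levels, the exact conditional form for ratios and exact Clopper-Pearson for shares, and they cover counting error only.

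The day 16 library stood apart in the sex of its RNA. Xist, the RNA that coats the inactive X in female cells, was at 1272, 1189 and 1.24 CPM in the cycling cells. The Y-linked genes Ddx3y, Kdm5d, Eif2s3y and Uty together gave 0, 0.134 and 81.5 CPM. Day 16 therefore cannot be told apart from a difference in the sex of the mice. The 3833, 4664 and 2792 kept cells had median depths of 7945, 7572 and 11875 UMIs, and pairs of libraries shared 1 to 4 cell barcodes. Cycling cells had a median of 8.02, 5.98 and 10.4% mitochondrial UMIs against 9.04, 6.08 and 11.2% in the other cells. The epithelial gene Epcam was at 1846, 1989 and 1786 CPM in the cycling cells. Of 20 immune markers, 13, 15 and 4 were at 0 in cycling cells, and their summed level was 12.4, 9.76 and 68.9 CPM. The granzyme gene Gzma made 35.3 CPM of the day 16 sum, and 4 cycling cells of that day held at least 3 UMIs of 6 lymphocyte genes, against 0 and 0 at days 7 and 12. Of 13 stromal and endothelial markers Vim gave nearly all of the signal (57.6, 207 and 1.24 CPM of 59.8, 212 and 1.89 CPM), and the collagen genes Col1a1, Col1a2 and Col3a1 were at 0.

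Eed itself was counted in the cycling cells at 65.2 (60.6 to 70), 39.2 (34.8 to 43.9) and 32.9 (29.9 to 36) CPM. The day 7 interval lay above those of days 12 and 16, which overlap. Day 7 over day 16 gave a ratio of 1.98 in cycling cells and 2.17 in the other cells, whose levels were 49.1, 24.8 and 22.6 CPM. The counts come from the 3' end and the deleted exons are not given in the labels, so these levels check neither recombination nor the labels.

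The intestinal epithelium renews from crypts, where Lgr5-positive stem cells and the transit-amplifying progenitors above them divide while differentiated cells do not. A dividing cell passes from growth (G1) through DNA replication (S) and G2 to mitosis. E2F factors switch on replication genes at the G1/S boundary, and the genes of G2 and mitosis are switched on later by MYBL2 and FOXM1 bound with the DREAM-related MuvB core at promoters that carry a CHR element (TTTGAA) and CCAAT boxes, the sites of NF-Y. CDK inhibitors hold cyclin-dependent kinases off, and several of their genes are known PRC2 targets.

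Promoters of gate genes are shown because these genes were chosen together to mark cycling cells. RefSeq promoters (build GRCm38.p6, 250 bases before to 50 after the start of the gene) matched 6 of the 8 symbols. Those of Mki67 and Top2a matched but are not printed. TTTGAA and CCAAT, on either strand, are in capitals, and each line reads 5′ to 3′ on the strand of the gene.
Cdk1, chr10:69352863-69353162, minus strand: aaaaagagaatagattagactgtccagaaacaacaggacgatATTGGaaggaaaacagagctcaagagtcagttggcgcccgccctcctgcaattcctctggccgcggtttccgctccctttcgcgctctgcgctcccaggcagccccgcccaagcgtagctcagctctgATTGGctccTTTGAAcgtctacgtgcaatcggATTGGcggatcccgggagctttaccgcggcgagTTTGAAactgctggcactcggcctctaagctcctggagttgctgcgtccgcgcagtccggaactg
Ube2c, chr2:164769679-164769978, plus strand: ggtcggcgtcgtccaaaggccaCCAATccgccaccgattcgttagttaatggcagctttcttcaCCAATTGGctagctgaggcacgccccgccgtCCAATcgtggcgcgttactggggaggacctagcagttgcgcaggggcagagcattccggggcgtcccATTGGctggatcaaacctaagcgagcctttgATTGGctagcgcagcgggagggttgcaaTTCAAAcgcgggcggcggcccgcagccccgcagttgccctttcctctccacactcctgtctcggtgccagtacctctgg
Plk1, chr7:122159185-122159484, plus strand: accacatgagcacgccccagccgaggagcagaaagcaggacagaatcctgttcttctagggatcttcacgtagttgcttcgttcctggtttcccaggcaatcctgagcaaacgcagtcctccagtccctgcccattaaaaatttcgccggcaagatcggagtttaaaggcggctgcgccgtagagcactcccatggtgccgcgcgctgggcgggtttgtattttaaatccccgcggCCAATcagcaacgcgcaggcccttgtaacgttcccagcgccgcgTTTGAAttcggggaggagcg
Ccnb1, chr13:100786437-100786736, minus strand: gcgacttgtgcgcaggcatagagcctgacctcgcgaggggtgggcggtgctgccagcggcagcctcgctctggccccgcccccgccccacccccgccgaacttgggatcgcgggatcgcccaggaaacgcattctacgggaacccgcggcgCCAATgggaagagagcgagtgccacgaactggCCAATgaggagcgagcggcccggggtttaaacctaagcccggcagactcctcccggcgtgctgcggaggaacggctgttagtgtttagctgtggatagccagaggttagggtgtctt

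CCAAT was found in all 6 matched promoters and TTTGAA in 5, the exception being Ccnb1. Cdk1 held TTTGAA 2 times and CCAAT 3 times, Ube2c 1 and 6 times, and Plk1 1 time each. Over all 32851 promoters of the table, 17.9% held TTTGAA, 37.4% held CCAAT and 6.95% held both. Among 46 promoters of 43 further G2 and mitosis genes the shares were 69.6%, 76.1% and 60.9%. Among 37 promoters of 32 replication genes they were 13.5%, 56.8% and 8.11%. The replication set held the E2F words TTTGGCGC in 16.2% and TTTCGCGC in 13.5% of promoters, on either strand, against 0.514% and 0.323% of all promoters. Among the further G2 and mitosis promoters the shares were 2.17% and 0%. Of the 6 gate promoters 0 held TTTGGCGC and 1, that of Cdk1, held TTTCGCGC, which is not in capitals above. A match is a word in this window and not a site shown to be bound.

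Cycling cells made up 21.3% (20.1 to 22.7) of the kept cells at day 7, 10.9% (9.99 to 11.8) at day 12 and 28.5% (26.9 to 30.3) at day 16. The day 12 share was the lowest of the 3, and the 3 intervals did not overlap. The cells were also the deeper ones: their median was 13184, 14169 and 16638 UMIs against 7052, 7213 and 10661 in the other cells, a ratio of 1.87, 1.96 and 1.56. When every cell was thinned to 2500 UMIs and the gate lowered to 4 UMIs and 3 genes, the shares were 16.3, 8.1 and 20.2%, in the same order of days. Which cells were GFP-positive was set by the sort, so these are shares of sorted cells. Cycling cells held 32.8, 18.6 and 38.9% of all UMIs of kept cells, and 90, 88.2 and 90.6% of the UMIs of the 8 gate genes.

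**Figure D1:**
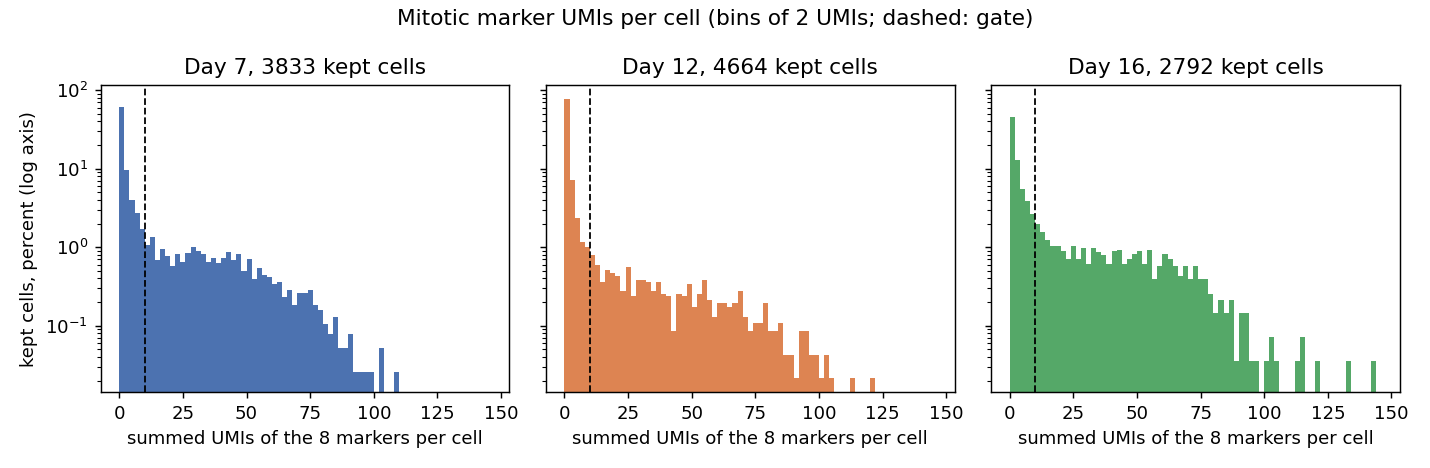
Percent of kept cells (log axis) by the summed UMIs of the 8 gate genes per cell, in bins of 2 UMIs, for days 7, 12 and 16, with the threshold of 10 UMIs dashed. A long tail reaching 108, 121 and 142 UMIs continues smoothly across the threshold on each day.

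The gate divides a continuous range. Cells with 8 or 9 gate UMIs numbered 65, 47 and 73 and cells inside the gate with 10 or 11 numbered 34, 33 and 48. A cell just outside was much like one just inside. The summed level of the 49 further G2 and mitosis genes was 4879, 4349 and 3976 CPM just outside and 4757, 4822 and 4057 CPM just inside. A further 14, 7 and 12 cells reached 10 UMIs with fewer than 4 genes detected and stayed out. Within the gate the median sum was 35.5, 35 and 39 UMIs, and all 8 genes were detected in 40.5, 45.8 and 35.3% of the cells.

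Each of the 8 gate genes was high in cycling cells and low in the other cells by choice, with empty droplets (1 to 100 UMIs) in between. Ube2c, which loads ubiquitin for the anaphase-promoting complex, was at 695 (680 to 710.4), 727 (708 to 747) and 574 (561 to 586) CPM in cycling cells. Top2a, the topoisomerase that untangles sister chromatids, was at 639.5 (625 to 654), 585 (568 to 603) and 492 (481 to 504) CPM. Mki67, whose protein coats mitotic chromosomes, was at 499 (487 to 512), 381 (367 to 395) and 624 (611 to 638) CPM. Top2a was lowest and Mki67 highest at day 16, so the gate genes did not share 1 order of days. Cdk1, the mitotic kinase, was at 279 (269 to 289), 381 (368 to 396) and 229 (221 to 237) CPM.

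Its partner cyclins differed by day in their own ways. Ccna2 was at 161 (154 to 168), 172 (163 to 181) and 174 (167 to 182) CPM, with 3 intervals that overlap. Ccnb1, the printed promoter with CCAAT and no TTTGAA, was at 161 (154 to 168), 191 (181 to 201) and 116 (110.4 to 122) CPM, lowest at day 16. Aurkb, the kinase of the chromosomal passenger complex, was at 110.1 (104 to 116), 147 (139 to 156) and 114 (108 to 119.7) CPM, highest at day 12. Plk1, a kinase of mitotic entry, was at 138 (131 to 145), 149.6 (141 to 159) and 59.9 (55.9 to 64.1) CPM, 0.434-fold (0.399 to 0.473) of the day 7 level at day 16. In the other cells it was also lowest at day 16 (6.2, 5.52 and 2.82 CPM).

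Plk1 was the 1 gate gene of 8 more than 2-fold lower at day 16 than at day 7, and 0 were more than 2-fold higher. A gene entered such counts with a mean of at least 10 CPM over the groups compared, and passed 2-fold by size alone. Over all 7703 genes of this comparison 5.24% were lower and 4.09% higher at day 16, with a median log2 ratio of -0.11. Against day 12 Plk1 was again the 1 gate gene past 2-fold, lower at day 16, beside 8.72% lower and 4.69% higher of 7830 genes and a median of -0.16. Between days 7 and 12, 0 of the 8 were past 2-fold, beside 1.87% higher and 0.966% lower at day 12 of 7867 genes and a median of 0.06. Each pair of these comparisons shares a library. The gate was built on these 8 genes, so their levels within it are a description and nothing is read from these counts. The summed gate genes were at 2683, 2734 and 2383 CPM in cycling cells, 146, 83.1 and 158 CPM in other cells and 844, 656 and 786 CPM in empty droplets. Per UMI, the empty droplets thus held more of these transcripts than the cells outside the gate did. Nothing is read from this order, since the gate placed 90, 88.2 and 90.6% of these transcripts of kept cells among the cycling cells.

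**Figure D2:**
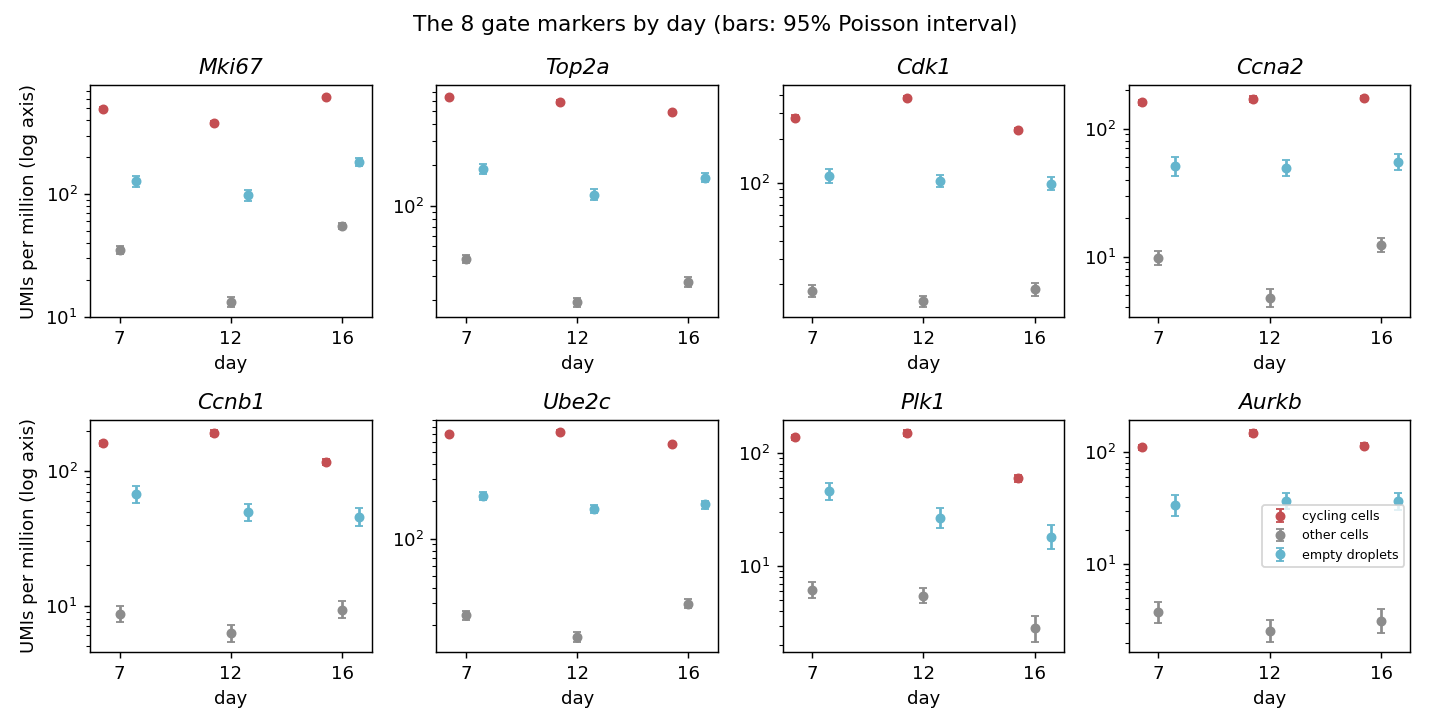
Level in CPM (log axis) of the 8 gate genes on days 7, 12 and 16 in cycling cells (red), other cells (grey) and empty droplets (blue), with 95% Poisson intervals. Plk1 in cycling cells goes from 138 and 149.6 at days 7 and 12 to 59.9 at day 16, while Mki67 is highest at day 16.

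Across all genes, 293 of 7825 tested genes (3.74%) were more than 2-fold higher in cycling than in other cells at day 7 and 87 (1.11%) more than 2-fold lower. At day 12 the counts were 413 higher (5.08%) and 343 lower (4.22%) of 8137. At day 16 they were 279 (3.7%) and 165 (2.19%) of 7534. With at most 10% mt- UMIs the day 16 counts were 289 higher and 373 lower, and with cells thinned before the gate the day 12 counts were 492 and 546, so the balance between directions reversed under each. The gate used the same cells, so nothing is read from these shares.

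Genes of spindle, kinetochore and cytokinesis led the list outside the gate genes. Genes were ranked by the smallest of their 3 daily ratios. Nusap1, a spindle-associated protein, ranked first, at 132, 124 and 136 CPM in cycling and 2.47, 0.854 and 1.85 CPM in other cells. Aspm, Prc1, Cdca2, Spc25, Kif11, Aurka and Anln, which act at spindle poles, the central spindle, chromatin, kinetochores or the cleavage furrow, were at least 19.7-fold higher on every day. The remaining 2 of the 10 were histone genes, Hist1h1b (238, 178 and 312 CPM) and Hist1h2ao (268, 700.3 and 245 CPM). Hist1h2ao was higher at day 12 than on the other days, whereas Hist1h1b was lower.

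The list of 50 further G2 and mitosis genes, of which 49 were in the files, was high in the gate almost throughout. Past 2-fold higher in cycling cells were 47 of 48 tested members at day 7, 47 of 48 at day 12 and 46 of 47 at day 16, and 0 were past 2-fold lower. The exception on each day was Pttg1, the securin gene, at 45.1, 39.4 and 33.9 CPM in cycling and 41.6, 42.6 and 28 CPM in other cells. Over all genes 3.74, 5.08 and 3.7% were past 2-fold higher and 1.11, 4.22 and 2.19% lower. Median log2 ratios of the list were 3.54, 4.35 and 3.49, against 0.02, -0.05 and 0.06 over all tested genes. Hmgb2, a chromatin protein of proliferating cells, was at 1634, 1894 and 1518 CPM in cycling and 334, 303 and 341 CPM in other cells. Tubb4b, a tubulin of the spindle, was at 1351, 1449 and 1114 and 314, 367 and 261 CPM, and the kinetochore protein gene Cenpf at 421, 303 and 299 and 23.2, 10.4 and 25.3 CPM. The condensin genes Smc4 (422, 382 and 414 CPM) and Smc2 (333, 339 and 284 CPM) and the kinase subunit gene Cks2 (417, 469 and 357 CPM) were likewise high on all 3 days.

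Between days the mitosis genes past 2-fold were a share near that of all genes. Of 49 tested genes 1 was past 2-fold lower at day 12 than at day 7, beside 0.966% of all genes. It was the spindle checkpoint gene Bub1b, at 66.2, 32.5 and 73.8 CPM. Of 48 genes 1 was past 2-fold higher at day 16 than at day 7, beside 4.09% of all genes. It was the cytokinesis motor gene Kif23, at 41.5, 72.7 and 87.9 CPM. At day 16 against day 12, 1 of 49 was past 2-fold higher, again Bub1b, beside 4.69% of all genes. Bub1b and Kif23 were named after their values were seen. The list's median log2 ratios were 0.03 for day 12 over day 7, -0.17 for day 16 over day 7 and -0.24 for day 16 over day 12, each within 0.1 of the median of all genes.

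The replication genes stood less far above the other cells, and by a ratio that differed between days. The 44 genes of DNA replication and the G1/S step summed to 3182, 4147 and 3277 CPM in cycling and 1722, 1401 and 1906 CPM in other cells, ratios of 1.85, 2.96 and 1.72. Past 2-fold higher were 18 of 43 members at day 7, 37 of 43 at day 12 and 17 of 43 at day 16. Lower were 0, 0 and 1, the 1 being Ung, a uracil glycosylase gene (25.5 against 53.5 CPM). Over all genes 3.74, 5.08 and 3.7% were higher and 1.11, 4.22 and 2.19% lower. Part of the day 12 ratio lies in the other cells, which were lowest in these genes on that day.

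Pcna, the sliding clamp of DNA polymerase, was at 210.3 (202 to 219), 331 (318 to 344) and 203 (196 to 211) CPM in cycling cells, highest at day 12. In other cells it was at 131, 136 and 125 CPM. Tyms, which makes thymidylate, was at 217, 268 and 229.9 CPM, the ligase gene Lig1 at 141, 188 and 141 CPM, the licensing inhibitor Gmnn at 133, 174 and 145 CPM and the helicase subunit gene Mcm7 at 133, 188 and 124 CPM. Each of these was highest at day 12. Dut, which clears dUTP, behaved differently: it was at 80.8, 301 and 219 CPM in cycling and 40.4, 93.2 and 143 CPM in other cells, so day 7 was lowest in both. Rrm1, the large subunit of ribonucleotide reductase, was at 158, 150 and 75.3 CPM and lowest at day 16. Of 44 members, Dut and the E2F repressor gene E2f8 (24.9, 31.6 and 54.4 CPM) were past 2-fold higher and Rrm1 was past 2-fold lower at day 16 than at day 7. Over all genes 4.09% were higher and 5.24% lower, so nothing about the list is read from these counts.

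Replication-coupled chromatin factors, 15 of 16 listed genes, summed to 1160, 1266 and 1131 CPM in cycling and 629, 509.9 and 625 CPM in other cells. Past 2-fold higher were 5, 10 and 5 of 13 tested members, beside 3.74, 5.08 and 3.7% of all genes. The histone chaperone gene Nasp was at 237, 253 and 221 CPM, Uhrf1, which guides maintenance DNA methylation, at 85.5, 129.8 and 94.4 CPM, and the remodeller gene Hells at 121, 104 and 97.6 CPM. Uhrf1 was highest at day 12 and Hells at day 7.

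Canonical histone genes, most of whose mRNAs lack a poly(A) tail and are therefore poorly captured by this chemistry, summed to 1024, 869 and 1241 CPM in cycling and 184, 235 and 274 CPM in other cells. The linker histone genes Hist1h1b (238, 178 and 312 CPM) and Hist1h1e (162, 103 and 222 CPM) were lowest at day 12, and Hist1h2ag (93.7, 149.9 and 95.4 CPM) was highest there. Hist1h2bc went the other way, at 54.6, 86.4 and 78.6 CPM in cycling and 88.3, 175 and 167 CPM in other cells. Members of this family are close copies, so reads may be split among them.

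The range of gate UMIs was also divided into 5 bands, 0, 1 to 3, 4 to 9, 10 to 19 and 20 or more, regardless of how many genes were detected. Replication genes were highest in the band of 10 to 19 on every day and lower above it, as the plot of gene lists by band shows. At day 7 they summed to 1102, 1887, 3315, 3970.5 and 3009 CPM over the 5 bands. At day 12 the sums were 907, 1829, 3931, 5229 and 3846 CPM and at day 16 1098, 2092, 3088, 4355 and 2997 CPM. The band of 4 to 9, which lies outside the gate and held 321, 212 and 333 cells, thus carried replication genes at 3315, 3931 and 3088 CPM, above the top band. Thinned to 2500 UMIs, 18.4, 7.12 and 25.6% of cells outside the gate held more replication UMIs than the median cycling cell of their day. A gate built on mitotic genes therefore left out cells with replication RNA.

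**Figure D3:**
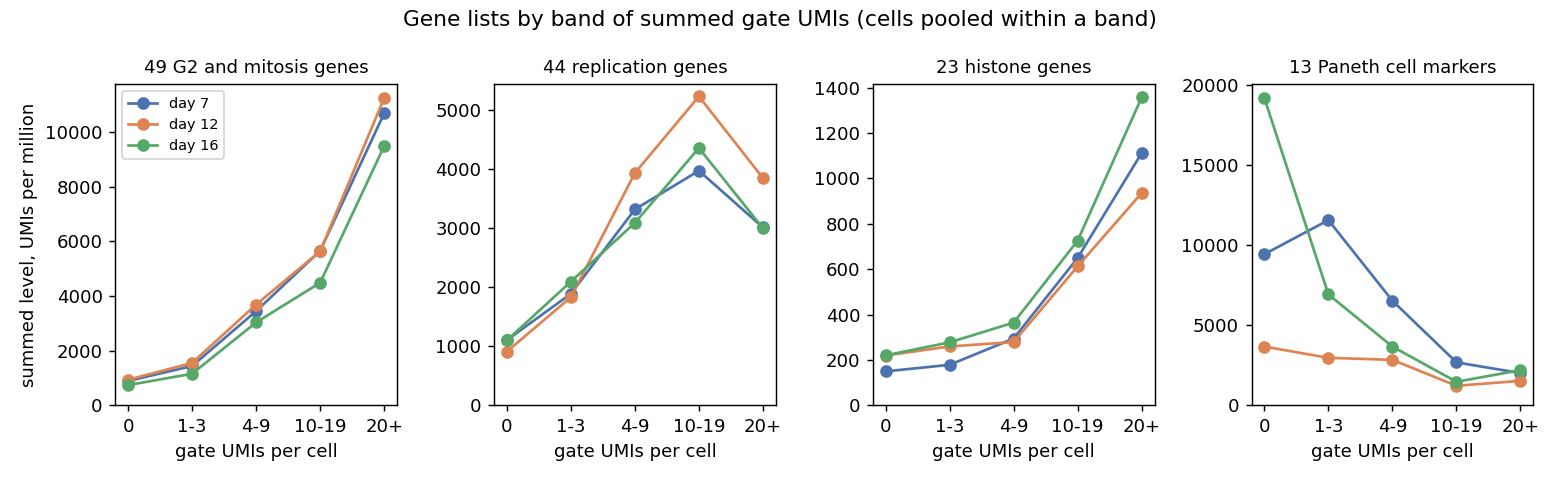
Summed level in CPM of 4 gene lists (49 G2 and mitosis genes, 44 replication genes, 23 histone genes, 13 Paneth cell markers) in cells pooled by band of summed gate UMIs, for days 7, 12 and 16. Mitosis and histone genes are highest in the top band, replication genes in the band of 10 to 19, and Paneth cell markers are lower in the 2 bands from 10 UMIs up than in the 3 below.

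Within the gate, cells were set on a scale from replication to mitosis after thinning each to 2500 UMIs. Median UMIs of the 44 replication genes were 7, 10 and 7 and those of the 49 mitosis genes 25, 26 and 21, against 3, 2 and 3 and 2, 2 and 2 in the other cells. More replication than mitosis UMIs were found in 14.7% (12.3 to 17.3) of cycling cells at day 7, 20.7% (17.3 to 24.5) at day 12 and 21% (18.2 to 23.9) at day 16. The intervals of days 12 and 16 overlap with each other, and that of day 7 touches day 12 at its edge. This is a range and not 2 kinds of cell: 64, 50 and 100 of the cells lay within 2 UMIs of equality. Free RNA carries both lists, at 2261, 2221 and 2413 CPM and 3902, 3257 and 3599 CPM in empty droplets, and its part in these counts was not tested.

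**Figure D4:**
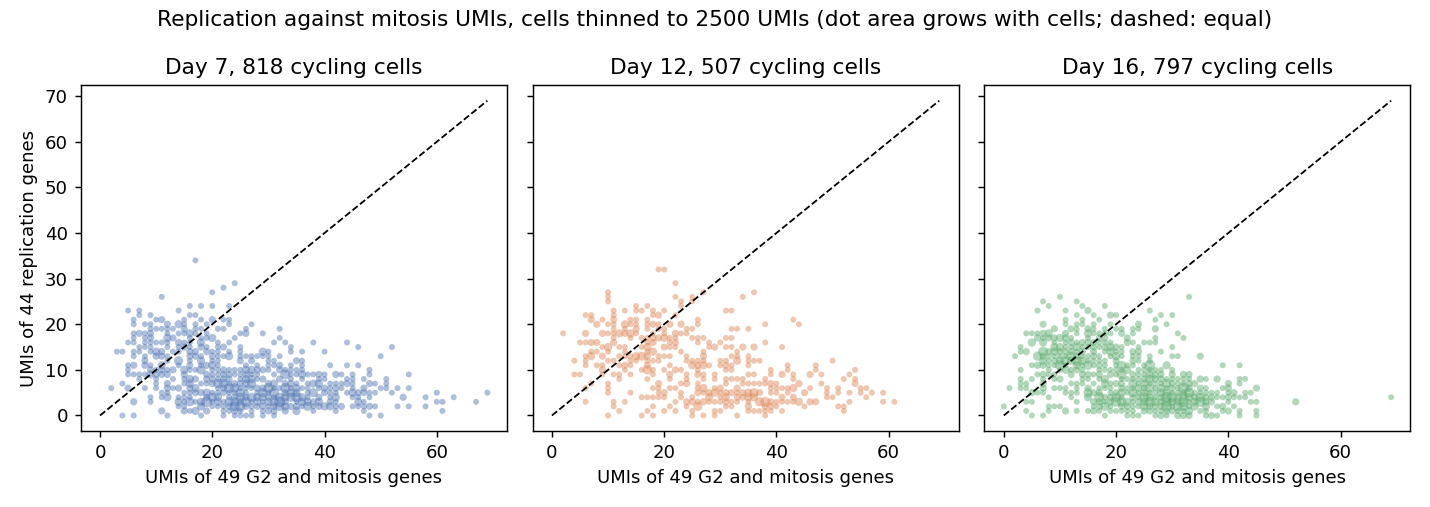
UMIs of 44 replication genes (vertical axis) against UMIs of 49 G2 and mitosis genes (horizontal axis) in each cycling cell of days 7, 12 and 16 after thinning to 2500 UMIs, with the line of equality dashed and dot area growing with the number of cells. Cells spread as 1 continuous cloud from the upper left to the lower right, and 120, 105 and 167 of them lie above the line.

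The 2 lists set this scale, so their own genes are not a result, and the following 4 genes are on neither list and not in the gate. They were chosen after their values were seen. Ccnd1, the G1 cyclin induced by growth signals, was at 184, 189 and 171 CPM in replication-leaning and 107, 93.5 and 94.5 CPM in the remaining cycling cells, ratios of 1.73, 2.02 and 1.8. Ezh2, the catalytic PRC2 subunit and an E2F target, was at 229, 211 and 208 and 175, 173 and 157 CPM, ratios of 1.31, 1.22 and 1.32. Cdkn2d, the INK4 inhibitor p19, went the other way at 8.68, 11.8 and 13.7 and 19.5, 34.9 and 28 CPM. Lgr5 stood at 113, 136 and 29.9 CPM in replication-leaning cells and at 149, 144 and 32.7 CPM in the rest.

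Ccnd1 and Ezh2 were thus higher and Cdkn2d lower toward the replication end on each day. Not every gene off the 2 lists kept 1 direction. Ratios were 1.4, 1.3 and 0.78 for Hist1h1b and 1, 1.44 and 0.986 for Ccnd2. Lgr5 was lower toward the replication end at day 7, with a ratio of 0.763 (0.654 to 0.886), and its intervals held 1 at days 12 and 16.

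Regulators of G1 and of the cell cycle promoters stood near the other cells as a sum, with named exceptions. The 18 G1 cyclins, CDKs, E2F and pocket protein and MuvB genes summed to 1007, 1049 and 1230.3 CPM in cycling and 947, 929.8 and 1196 CPM in other cells. Cdk4, the kinase partner of D cyclins, was at 422, 514 and 329 CPM in cycling and 389, 440.1 and 285 CPM in other cells. Ccnd1 was at 118, 113 and 109.5 and 142, 122 and 142 CPM. The members past 2-fold higher on each day were Foxm1 (25.9, 33.7 and 30 against 2.09, 2.35 and 2.22 CPM), Mybl2 (24.6, 34.6 and 22.4 against 5.7, 4.33 and 4.82 CPM), the MuvB gene Lin54 (20.7, 25.3 and 30.4 against 7.62, 5.61 and 9.77 CPM) and the pocket protein gene Rbl1 (23.4, 26.6 and 24.5 against 10.4, 12.1 and 9.96 CPM). At day 16 the MuvB gene Lin9 passed as well. E2f4, the E2F of repressor complexes, stood at 56.6, 57.1 and 56 and 39.3, 40.3 and 40.7 CPM.

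Ccnd2, a D cyclin, differed by day in both populations. It was at 158 (151 to 166), 78.6 (72.4 to 85.2) and 464 (452 to 475) CPM in cycling cells and at 231, 192 and 583 CPM in other cells. Both populations were lowest at day 12 and highest at day 16, and on each day the cycling cells were below the others. In cycling cells day 16 stood 2.93-fold (2.78 to 3.09) over day 7 and 5.9-fold (5.42 to 6.43) over day 12.

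Among the 7 CDK inhibitors, some genes stood above and some below the other cells on each day, and Cdkn2a kept to neither side. Cdkn2c and Cdkn2d, INK4 genes, were higher in cycling cells on every day: Cdkn2c was at 17.7 (15.4 to 20.3), 27.7 (24 to 31.7) and 26.4 (23.7 to 29.2) CPM against 3.85, 4.33 and 8.8 CPM, and Cdkn2d at 17.9 (15.5 to 20.5), 30.2 (26.4 to 34.4) and 25.1 (22.6 to 27.9) CPM against 3.69, 4.45 and 3.8 CPM. Cdkn1b, which encodes p27, was at 59.9 (55.6 to 64.6), 20.7 (17.6 to 24.3) and 69.3 (65 to 73.8) CPM against 49.7, 14.5 and 45.3 CPM, lowest at day 12 in both. Cdkn1a, which encodes p21 and is a p53 target, was below the other cells on each day, at 33.2 (30 to 36.7), 48.3 (43.4 to 53.5) and 81.8 (77.1 to 86.7) CPM against 47.4, 71.3 and 135 CPM. In both populations its order was day 7, day 12, day 16 from low to high.

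Cdkn1c, which encodes p57, was further below the other cells than Cdkn1a on each day. It was at 18.4 (16 to 21), 57.5 (52.2 to 63.2) and 9.54 (7.98 to 11.3) CPM in cycling cells and at 53.6, 419 and 36 CPM in other cells, which were 2.92, 7.29 and 3.77-fold higher. Day 12 was the highest day in both, and over the 5 bands of gate UMIs on that day Cdkn1c stood at 543, 221, 91.6, 64.7 and 55.8 CPM. The level of Cdkn1c in the empty droplets was 37.2, 263 and 28.9 CPM, above that of the cycling cells on each day.

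Cdkn2a, which encodes p16 and the p53 activator ARF, was counted in cycling cells with 0, 14 and 206 UMIs. Its level was 0, 1.87 and 15 CPM in cycling and 0, 1.13 and 34.2 CPM in other cells, with 0, 37 and 738 UMIs in the latter. The interval of the day 16 level in cycling cells was 13 to 17.2 CPM, and the other cells were 2.28-fold higher. The 0 UMIs of day 7 set the day 16 level at least 58.2-fold higher, computed against 3 counts over the group. Empty droplets of day 16 held 24.1 CPM, above the cycling cells, and the part of free RNA in the 206 UMIs was not tested. Its neighbour Cdkn2b stood at 0.515, 2.27 and 10.2 CPM in cycling and 1.01, 5.79 and 27.2 CPM in other cells, with 6, 17 and 140 UMIs in the former. The day 16 over day 12 log2 ratio of Cdkn2a in cycling cells, with 14 UMIs at day 12, was 3.00 with all cells and 4.10 without the 5% of cells with the most UMIs.

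**Figure D5:**
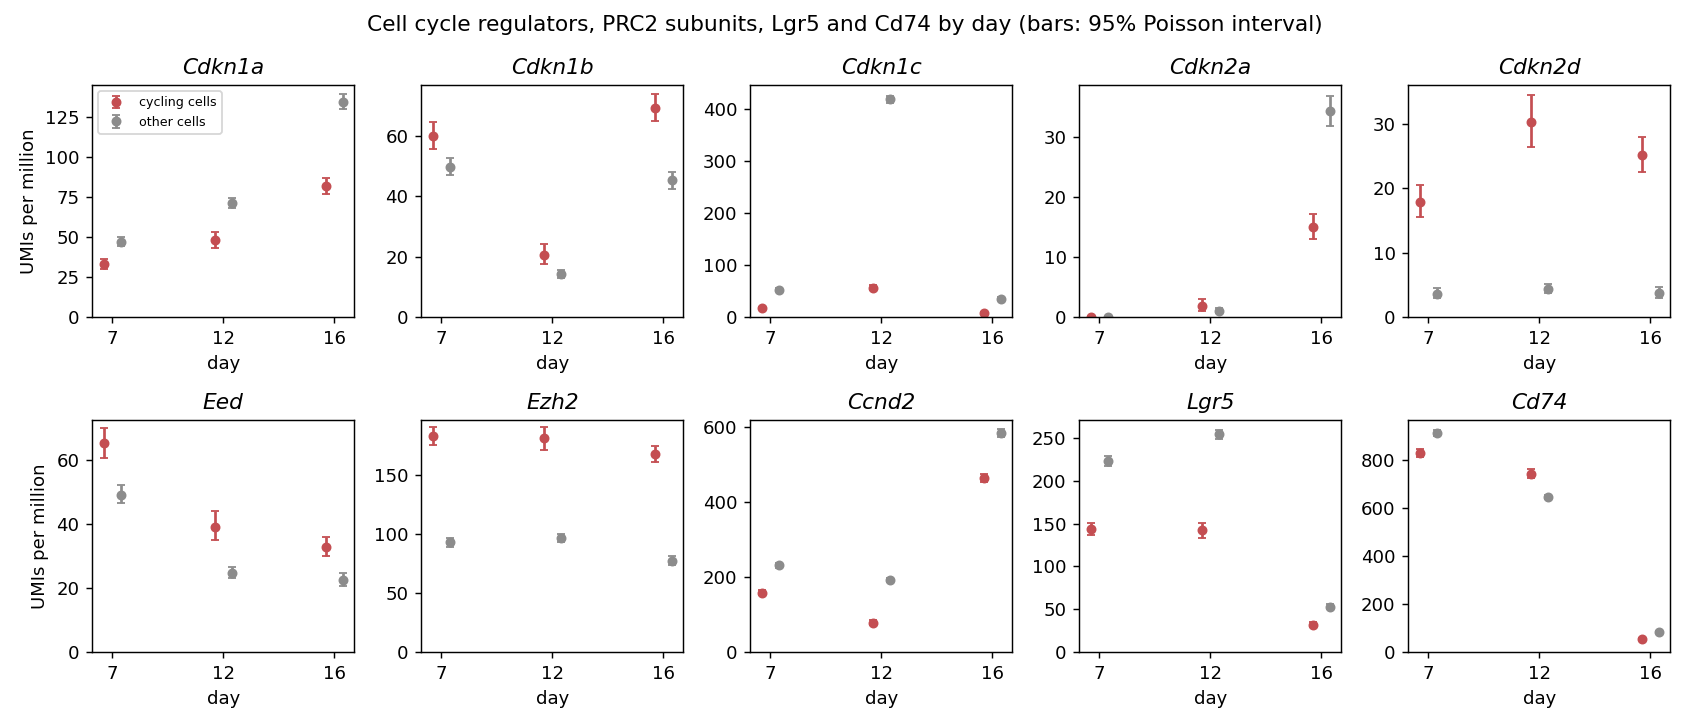
Level in CPM, on linear axes from 0, of 5 CDK inhibitors, Eed, Ezh2, Ccnd2, Lgr5 and the MHC class II chain gene Cd74 on days 7, 12 and 16 in cycling (red) and other cells (grey), with 95% Poisson intervals. Cdkn1a, Cdkn1c and Lgr5 lie below the other cells on each day, and Cdkn2d, Eed and Ezh2 above them.

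The PRC2 genes were higher in cycling cells as a sum, at 972, 985 and 800.5 CPM against 701, 704 and 521 CPM for the 11 of 12 listed genes in the files. Ezh2 was at 183 (175 to 191), 181 (172 to 191) and 167 (161 to 174) CPM against 93.1, 97.1 and 77.6 CPM, and it was past 2-fold at day 16. Suz12, another core subunit, was at 164, 143 and 139 CPM against 105, 76 and 80.7 CPM. The histone-binding subunit genes Rbbp7 (238, 269 and 205 against 165, 176 and 136 CPM) and Rbbp4 (147, 182 and 117 against 120.1, 137 and 87.6 CPM) were also higher in cycling cells on each day. Ezh1, the paralogue linked to non-dividing cells, was at 9.53, 7.49 and 10.9 CPM against 11.3, 10.2 and 12.3 CPM. The accessory subunit gene Jarid2 was at 54.7, 51.5 and 35 CPM against 67, 95.4 and 34.4 CPM, below the other cells at days 7 and 12. Aebp2 (43.1, 41 and 41.4 CPM) and Mtf2 (62, 65.6 and 46.8 CPM) were above them, and Phf1 and Phf19 were under 10 CPM in cycling cells.

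As a sum, stem cell markers were somewhat lower in the cycling cells than in the others, though members lay on both sides. Olfm4, for 1, was higher in cycling cells at day 12. The 24 markers summed to 3337, 3249.5 and 2136 CPM against 4174, 3748 and 2507 CPM, ratios of 0.8, 0.867 and 0.852. Lgr5 itself, the receptor gene from which Cre and GFP are driven, was at 143 (137 to 150.5), 142 (134 to 151) and 32.1 (29.2 to 35.3) CPM in cycling and 223, 254 and 53 CPM in other cells. Smoc2 was at 307, 497 and 166 CPM, Sox9 at 204, 249 and 94.7 CPM, Gkn3 at 221, 277 and 53.3 CPM and Cdca7 at 378, 393 and 132 CPM, all 4 lowest at day 16. Slc12a2 (546, 314 and 539 CPM) and Olfm4 (228, 23.3 and 376 CPM) were lowest at day 12, and Olfm4 was at 248, 7.1 and 476 CPM in the other cells.

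Stem cell markers were lower at day 16 as a list. Of 23 tested, 12 were past 2-fold lower and 0 past 2-fold higher in cycling cells of day 16 than of day 7. Over all genes 5.24% were lower and 4.09% higher, and the list's median log2 ratio was -1.01. Against day 12 the counts were 14 lower and 1 higher, the latter Olfm4, beside 8.72% and 4.69% of all genes. The median of the list was -1.28. For day 12 against day 7 they were 1 lower, again Olfm4, and 0 higher, beside 0.966% and 1.87%, with a median of 0.07. In the other cells the median log2 ratio of the list was -1.17 for day 16 over day 7, beside -0.14 over all genes. Against day 12 the median there was -1.41, beside -0.25 over all genes.

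The 13 regulators of secretory fate summed to 922, 1033 and 449 CPM in cycling and 1249, 1754 and 547 CPM in other cells. Sox4, a factor of early secretory progenitors, was at 477, 486 and 199 CPM against 721, 966 and 223 CPM. Hes6 was at 206, 282 and 77 CPM and the Notch effector gene Hes1 at 83.7, 112 and 67.3 CPM. Foxa3, active in goblet and enteroendocrine lineages, was at 88.4, 88.8 and 17 CPM and lowest at day 16. Atoh1, the master factor of the secretory lineage, was low on all days, at 5.5, 6.55 and 11.3 CPM.

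Markers of Paneth, goblet and enteroendocrine cells were lower in cycling cells than in other cells and than in empty droplets. Paneth cell markers, 13 of 14 listed, summed to 2161, 1453 and 2063 CPM in cycling cells, 9645, 3399 and 10985 CPM in other cells and 7473, 4229 and 6601 CPM in empty droplets. Goblet cell markers gave 803, 478 and 2081 CPM, 1664, 889.6 and 8065 CPM and 1980, 1845 and 5020.4 CPM. For enteroendocrine markers the sums were 30, 18.7 and 41.4 CPM, 265, 90.4 and 2293 CPM and 224, 170.1 and 1723 CPM. The large day 16 ratio of the last list, 55.4-fold lower in cycling cells, goes with 72 other and 0 cycling cells that held at least 20 UMIs of Chga and Chgb. A count of 0 of 797 cells allows a share of up to 0.376% by the limit of 3 counts, and the upper exact Clopper-Pearson limit is 0.462%. Tuft cell markers summed to 371, 542 and 188 CPM against 497, 792 and 411 CPM, nearly all of it Cd24a (351, 516 and 159 CPM), which stem cells and Paneth cells also express. Dclk1 and Trpm5, defining genes of tuft cells, were under 2 CPM in cycling cells on each day.

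Of the 10 genes furthest below the other cells on every day, most were secretory: Defa24, Ang4, Itln1, Lyz1, Rnase4 and Spink4, with Tm4sf4, Pdgfa, Tmem66 and Plac8. Their smallest daily ratio of other over cycling cells ran from 1.66 for Plac8 to 4.97 for Defa24. In cycling cells some secretory genes sat in few cells and others were spread. The 10 cells with the most held 94.2, 85.1 and 88.1% of the Defa24 UMIs, 72.2, 63.2 and 88.2% of the Lyz1 UMIs and 94.1, 97.9 and 64% of the Muc2 UMIs. For the goblet cell genes Tff3 and Spink4 the 10 cells held 75, 97.1 and 39.3% and 72.9, 92.2 and 55.3%, so at day 16 much of this RNA lay outside them. Defa24, a Paneth cell defensin, was at 676, 50.4 and 664 CPM and lysozyme (Lyz1) at 432, 182 and 510.2 CPM, both lowest at day 12. Cycling cells with at least 100 UMIs of Lyz1 and Defa24 numbered 10, 5 and 9, and their median depth was 20898, 17840 and 16766 UMIs against 13184, 14169 and 16638 for all cycling cells. Cycling cells with at least 50 UMIs of the goblet cell genes Muc2 and Tff3 numbered 10, 2 and 41, or 1.22, 0.394 and 5.14% of cycling and 0.564, 0.241 and 10.3% of other cells bearing the same mark. Doublets were not removed, and their part in these cells was not tested.

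Enterocyte markers, 24 of 25 listed, summed to 527, 479 and 1850.3 CPM in cycling and 601, 679 and 3525 CPM in other cells. Day 16 was highest in both. Empty droplets held 1307, 1146 and 3383 CPM of this list, above the cycling cells on each day. Prap1 was at 62.2, 55.2 and 599 CPM and the fatty acid binding protein genes Fabp2 and Fabp1 at 38.1, 36.8 and 279.5 and 4.38, 3.34 and 129.8 CPM. In empty droplets Fabp1 was at 253, 172 and 634 CPM, above the cycling cells on each day, whereas Prap1 was at 80.6, 102 and 471 CPM, below them at day 16. Of 12 tested enterocyte markers 6 were past 2-fold higher and 0 lower at day 16 than at day 7, and of 11 goblet cell markers 9 and 0. Over all genes 4.09% were higher and 5.24% lower. In the other cells the median log2 ratio of day 16 over day 7 was 3.55 for enterocyte markers. For goblet cell markers it was 2.60, beside -0.14 over all genes.

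Between days 7 and 12 the cycling cells differed in 147 genes past 2-fold higher and 76 lower at day 12. Pkm, pyruvate kinase, had the largest ratio among the named higher genes, at 39.3 CPM at day 7 and 529 CPM at day 12, 13.5-fold (12.2 to 14.9). Other cells showed 15.4-fold for the same gene. Wfdc18, a small secreted protein of the whey acidic protein family, stood at 21.9 and 217 CPM, 9.92-fold. The lipase-related gene Pnliprp2, the growth factor binding protein gene Igfbp2, S100a6 and the complement gene Cfi were 5.43, 4.66, 4.19 and 3.93-fold higher. Dut, Wdr83os, Vim and the Wnt ligand gene Wnt6 completed the 10, at 3.72, 3.61, 3.59 and 3.4-fold. Each of the 10 was also more than 2-fold higher at day 12 in other cells, from 2.31-fold for Dut to 15.4-fold for Pkm. In empty droplets of day 12, Wfdc18 was at 592, Pnliprp2 at 285, Igfbp2 at 103 and S100a6 at 1819 CPM. Cfi, Vim and Wnt6 were at 455, 557 and 125 CPM there, and all of these lay above the cycling cells. Pkm, Dut and Wdr83os lay below them, at 457, 170 and 117 CPM. The part of free RNA in these ratios was not tested.

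Lower at day 12 were genes of 2 kinds, those held by many cells and those held by few. Olfm4, a crypt base glycoprotein, was 9.78-fold lower, the potassium channel subunit gene Kcne3 5.23-fold, the histone deacetylase gene Hdac1 4.39-fold, the adhesion gene Ceacam1 3.44-fold, the 14-3-3 gene Sfn 3.1-fold and Cdkn1b 2.89-fold. Hdac1 went from 132 to 29.9 CPM, and stood at 102 CPM at day 16. AY761184, Defa17 and Defa24 were 77.7, 13.8 and 13.4-fold lower, with 97.6%, 91.8% and 94.2% of their day 7 UMIs in 10 cells. With every cell thinned to 2500 UMIs before the gate, the log2 ratios of day 12 over day 7 were -0.64 for AY761184 and -0.73 for Defa24, against -6.28 and -3.74 with all UMIs. Thinning changed both the depth and which cells passed the gate. In the other cells AY761184 was 70.1-fold and Defa24 15.3-fold lower at day 12. For Zg16 the share in 10 cells was 99.7%. The log2 ratio of Zg16, day 12 over day 7, was -2.52 with all cells and 0.58 without the 5% of cells with the most UMIs, so its direction rests on those cells. In the other cells Zg16 was at 13.9 CPM at day 7 and 224 CPM at day 12, the opposite direction.

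Day 16 differed from day 7 in more genes, 315 past 2-fold higher and 404 lower. Scaled so that the median ratio of the compared genes is 1, the counts were 372 higher and 358 lower, so the balance between directions depends on the scaling. This stands beside the difference in Xist and Y-linked RNA. Rbp7, a cytoplasmic retinoid binding protein, had 0, 17 and 979 UMIs, at least 277-fold higher at day 16 than at day 7 when 3 counts over the group are set for the 0. Anxa13, an annexin of absorptive cells, was at 4.9, 3.08 and 106 CPM, the mitochondrial arginase gene Arg2 at 6.44, 11.4 and 97.5 CPM, the sialyltransferase gene St3gal4 at 3.69, 11 and 56.5 CPM, the esterase gene Ces2e at 5.15, 4.95 and 69.9 CPM and the sulfotransferase gene Sult1d1 at 9.62, 9.76 and 125 CPM. AI747448 (4.21, 5.35 and 113 CPM) and Abhd11os (4.38, 3.61 and 85.5 CPM) were likewise highest at day 16. Fabp1 was 29.6-fold higher. Mptx1, a pentraxin gene, was at 1.8, 0.802 and 281 CPM, and 10 cells held 95.5% of its day 16 UMIs.

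In the other cells of day 16 these 10 genes were 7.02-fold (Sult1d1) to 1056-fold (Mptx1) higher than at day 7. Rbp7 differed in that its level at day 16 was higher in cycling than in other cells (71.3 against 32.8 CPM), a ratio of 2.18 (1.97 to 2.4). The day 7 level of Rbp7 in the other cells rests on 1 UMI. Thinned to 2500 UMIs a cell, the bound of day 16 over day 7 in cycling cells was 5.01 on the log2 scale, against 8.11 with all UMIs. In empty droplets of day 16, Mptx1 was at 716, Fabp1 at 634, Anxa13 at 139.6, Sult1d1 at 139.8 and AI747448 at 115 CPM. Arg2, St3gal4 and Ces2e were at 108, 87.4 and 82.6 CPM there, and all of these lay above the cycling cells. Rbp7 and Abhd11os lay below them, at 46.6 and 79.7 CPM. The part of free RNA in these ratios was not tested.

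Lower at day 16 than at day 7 were, after Xist, several genes with only a handful of UMIs at day 16. Ifitm1, an interferon-induced membrane protein, had 5026, 6135 and 6 UMIs in cycling cells. Asb4 had 922, 807 and 3, the secreted chaperone gene Clu 1868, 3266 and 10, Cfi 924, 2332 and 6, Notum, which inactivates Wnt ligands, 696, 1299 and 7, and Prox1, a homeobox factor, 753, 526 and 14 UMIs. The ratios of day 7 over day 16 were 987 for Ifitm1, 362 (124 to 1760) for Asb4, 220.2 for Clu and 117 for Notum. Reg3b, an antimicrobial lectin, was at 4805, 4076 and 91.9 CPM and Pla2g2a, a secreted phospholipase of Paneth cells, at 484, 705 and 4.74 CPM. Vim, an intermediate filament gene, had 671, 1548 and 17 UMIs, and its log2 ratio of day 16 over day 7 was -5.54, or -7.30 without the 4 cells of lymphocyte genes. The other cells were also lowest at day 16, with Reg3b at 6568, 2962 and 176 CPM, Ifitm1 at 511, 1876 and 0.324 CPM and Notum at 103, 604 and 0.556 CPM.

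Against day 12, 367 genes were past 2-fold higher and 683 lower in cycling cells of day 16. Scaled so that the median ratio of the compared genes is 1, the counts were 458 and 559. Genes named here and not above were the chemokine gene Ccl25 (47.7, 9.76 and 315 CPM) and Otc (32, 13.9 and 285 CPM), a urea cycle enzyme, both lowest at day 12 and highest at day 16. Pdgfrl (447, 563 and 1 UMIs) and Sbspon (465, 711 and 4 UMIs) were nearly absent at day 16, and Wfdc18 had 255, 1625 and 3 UMIs.

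Antigen presentation genes were lower at day 16. All 6 tested MHC class II genes were past 2-fold lower in cycling cells of day 16 than of day 7, with a median log2 ratio of -3.79, and all 6 were past 2-fold lower than at day 12 (-3.69). Over all genes 5.24% and 8.72% were lower in these comparisons. In the other cells the median log2 ratios of the list were -3.39 and -2.60, beside -0.14 and -0.25 over all genes. Cd74, the invariant chain, was at 830.2 (814 to 847), 743 (724 to 763) and 56 (52.1 to 60.1) CPM, H2-Eb1 at 214, 163 and 12.7 CPM, H2-Ab1 at 207, 159.5 and 17.9 CPM and H2-Aa at 124, 96.3 and 4.23 CPM. The transactivator gene Ciita had 90, 24 and 9 UMIs. Other cells had Cd74 at 913, 648 and 85.9 CPM.

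Interferon-stimulated genes were lower too, with 7 of 8 tested past 2-fold lower at day 16 than at day 7 and 0 higher. Over all genes 5.24% were lower and 4.09% higher. The list's median log2 ratio was -1.78. In the other cells the list's median was -1.70, beside -0.14 over all genes. Ifitm3 made most of the sum of 3587, 3568 and 473 CPM, at 3206 (3174 to 3239), 3166 (3125 to 3206) and 371 (361 to 381) CPM. Ifi27 was at 112, 94.1 and 29.5 CPM, Bst2 at 49.8, 50.3 and 22.7 CPM and Isg15 at 44.5, 54.6 and 4.01 CPM.

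Developmental regulators, many of them known PRC2 targets, were sparse in the cycling cells. Of 39 Hox genes 27, 26 and 7 had 0 UMIs, and 0 reached the mean of 10 CPM. Their sum was 17, 16.7 and 36.2 CPM in cycling and 18.8, 18 and 64.5 CPM in other cells. Hoxb13, from the posterior end of the Hoxb cluster, had 0, 0 and 63 UMIs in cycling cells, at 4.59 CPM on day 16 against 12.8 CPM in other cells. Hoxa7 had 55, 26 and 50 UMIs and was lowest at day 12.

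Of 42 further developmental regulators 18, 19 and 6 were at 0. Pitx1 was at 72.9, 66.9 and 39.2 CPM and Tbx3 at 33.8, 23.9 and 21.1 CPM. Sox17 (47.5, 37.2 and 0.51 CPM) and Msx1 (26.4, 20.7 and 3.79 CPM) were lowest at day 16 and Barx2 (3.26, 1.2 and 29 CPM), chosen after its values were seen, was highest there. Against day 7, 1 of 7 tested members was past 2-fold higher at day 16, Barx2, and 3 were lower, Sox17, Msx1 and Prox1. Over all genes 4.09% were higher and 5.24% lower. In the other cells the median log2 ratio of the tested members was -0.74, beside -0.14 over all genes.

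Stress and growth genes were described from 3 lists. The 20 p53 targets summed to 901, 1065 and 981 CPM in cycling and 1093, 1685 and 1140.3 CPM in other cells, and 4 of 14 tested members were past 2-fold higher at day 16 than at day 7, with 0 lower, beside 4.09% higher of all genes. Against day 12, 0 were higher and 1 lower, Trp53inp1, beside 4.69% and 8.72% of all genes. The list's median log2 ratio was -0.16, that of all genes. The 4 higher than at day 7 were Cdkn1a, Ccng1, Pmaip1 and the stress kinase gene Plk3. Btg2, an antiproliferative p53 target, was lower in cycling than in other cells, at 335, 397 and 348 CPM against 519, 887 and 445 CPM. Pmaip1, a BH3-only death gene, was at 23.2, 28.7 and 50.8 CPM in cycling cells and Ccng1 at 22.8, 26.5 and 49.2 CPM. The 20 genes of ribosome biogenesis and Myc summed to 6104, 5506 and 5313 CPM against 4876, 3745 and 4791 CPM. In cycling cells 0 members were past 2-fold in any comparison of days, beside 0.966 to 8.72% of all genes per direction. The nucleolar protein genes Npm1 and Ncl were at 2097, 1935 and 1846 CPM and 1728, 1369 and 1388 CPM.

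Immediate-early and heat-shock genes, which respond to tissue dissociation as well as to signals, summed to 10378, 11560 and 11619 CPM in cycling and 10809, 15037 and 10297 CPM in other cells. The AP-1 genes Jun and Fos were at 1168, 1486 and 1145 and 498, 582 and 783 CPM in cycling cells and at 1479.6, 2175 and 1131 and 703, 1018 and 782 CPM in other cells. The chaperone gene Hsp90aa1 was at 1834, 1783 and 2073 CPM in cycling and 1322, 1342 and 1321 CPM in other cells, higher in cycling cells on each day.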

How the data were processed

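The authors deposited, per library, a droplet matrix of UMI counts for 24052 gene symbols and all barcodes. The submitters' processing notes name Cell Ranger 3.0.2 and build mm9, with no role or order given. Per the labels' protocols the chemistry was 10x 3′ v3, so a count is 1 molecule read near the 3′ end, and no filter on cells, doublets or free RNA is recorded in the sources used here. Low-value barcodes are therefore in the files.

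Barcodes with at least 2500 UMIs, 500 genes and at most 20% mt- UMIs were kept, and the gate was applied as described. Counts were summed over cycling or other cells of a day and scaled to CPM. Doublets were not removed and no doublet caller was run. Droplets with 1 to 100 UMIs gave the free RNA level. Thinning used fixed seeds. With 1 library a day no test was run, and genes are called past 2-fold by size from a mean of 10 CPM. A level of 0 was set to 3 counts over the group for a ratio. The steps for ratios and calls were tested on simulated data.

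The cells and the 24 gene lists were chosen with earlier results of these data known. Named genes were the 8 gate genes, up to 6 members of each list with the most UMIs in cycling cells, and the 10 largest ratios per direction and comparison among genes of at least 50 CPM in the higher group, leaving out clone identifiers. A few genes that this rule names are not reported here. Further list members named for passing 2-fold, or as exceptions, were chosen after their values were seen. Of the listed symbols 11 were not matched in the files. Promoters came from RefSeq (GRCm38.p6), matched by symbol, while the counts use mm9. Bulk RNA and chromatin libraries were left out of this account. Alternatives varied the gate, the mt- limit, the filter, the scaling, thinning and the deepest cells. The removal of cells with lymphocyte genes, and the alternatives for gene lists and named genes, were added after seeing the data. Tools were Python 3.11.15, numpy 2.4.6, pandas 2.3.3, scipy 1.17.1 and matplotlib 3.10.9.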

Additional observations from a re-analysis of the deposited data

Results flagged for a closer look

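In 3 gene lists the cycling cells lay on different sides of the other cells on different days. For the 42 developmental regulators the summed level in cycling over other cells was 1.06, 0.671 and 1.04 at days 7, 12 and 16, and the day 7 ratio was 1.58 times the day 12 ratio. For immediate-early and heat-shock genes the ratios were 0.96, 0.769 and 1.13, and day 16 was 1.47 times day 12. For MHC class II genes they were 0.91, 1.24 and 0.646, and day 12 was 1.92 times day 16. These differences between days were not tested, since each day is 1 library.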

How the results depend on the processing

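The order of the shares of cycling cells (day 12, day 7, day 16 from low to high) was the same under all 7 alternatives tried for it. The shares were 18.9, 9.39 and 24.7% with at least 15 gate UMIs, 18.4, 9.54 and 23.2% with at least 6 genes detected, 18.8, 8.13 and 26.4% without the 5% of cells with the most UMIs, and 16.3, 8.10 and 20.2% thinned. At most 10% mt- UMIs gave 25.5% at day 7 and 36.4% at day 16, and at least 8 gate UMIs gave 30.4% at day 16. The replication-leaning share was 10.5, 15.5 and 15.8% with at least 15 gate UMIs, and 24.7% at day 12 without the deepest cells. Genes past 2-fold numbered 223 (day 12 against 7), 719 (16 against 7) and 1050 (16 against 12), and 380, 756 and 444 for cycling against other cells. From a mean of 50 CPM they were 54, 195, 295, 107, 227 and 130, and with no filter 3198, 4705, 5223, 3799, 5111 and 4020, since the filter sets how many genes are compared. Thinned, day 12 against 7 gave 492. Of 66 alternative counts 53 stayed within 1.5 times in total, though not always in each direction. Of 693 alternative ratios between days of named genes, 70 moved by more than 1.5 times and 1 reversed, Zg16 for day 12 over day 7 without the deepest cells, at 0.58 on the log2 scale. Of 1197 alternative ratios of lists and named genes, 20 had another sign. The cause was not tested.

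No paired analysis was possible because each day is 1 library. Depth limits genes of under about 10 CPM, such as the Hox genes and Cdkn2a at day 12. Day, animal, library and the sex of the mouse cannot be told apart, and no value here separates dividing cells from doublets that hold one.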
